A study of Mus musculus with 12 samples.

Results

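The genes described here encode the proximal machinery of T cell receptor signalling. They encode receptor chains and coreceptors, the kinases and adaptors that act on them, and the enzymes that release diacylglycerol and calcium. Phosphatases and further adaptors, many of which restrain the cascade, are also among them. The genes were taken by symbol from a list of 42 genes. Of these, 41 had a probe set annotated to that gene alone, out of 19937 genes named on the array, and 1 of the 42 is not analysed here. Of the 41 genes, 40 were tested, as part of 11240 genes that exceeded the array's median probe set on 3 or more arrays. The exception, Dok1, an adaptor that restrains signalling, lay between 5.99 and 6.78 on the log2 scale, above the array median on 2 of 12 arrays.

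The study sorted CD4+ cells of IL-21eGFP mice from Peyer's patches, organised lymphoid tissue in the gut wall, and measured RNA on 12 Affymetrix mouse gene arrays, 3 in each of 4 groups. All groups carry the same bacterial artificial chromosome transgene, in which GFP reports IL-21, and all were gated as negative for MHC class II and Epcam. GFP+ Tfh were CXCR5+PD1+ and GFP+, and GFP- Tfh were CXCR5+PD1+ and GFP-. The other 2 groups were GFP-CXCR5+PD1- cells, called CXCR5+PD1- below, and GFP-CXCR5-PD1- cells, called CXCR5-PD1-. The stated purpose was to compare GFP+ with GFP- Tfh. The labels give no treatment, age, sex or genetic background, nor whether a replicate is a mouse of its own or a pool. The p-values thus rest on a spread between samples that may be partly technical and that includes the difference of sex given below. GFP marks transgene activity, so GFP- Tfh are not shown by the label to lack IL-21.

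The labels conflict in 3 places. The characteristics of the GFP+ arrays list CXCR5 and PD1 as negative whereas their titles and the sorting protocol give both as positive, the protocol names no CXCR5+PD1- sort, and all 12 arrays carry the cell type of T follicular helper. Groups follow the titles. Pdcd1 RNA, which encodes PD1, lay at 8.26 to 9.48 on the 6 Tfh arrays and 6.81 to 7.31 on the 6 PD1- arrays. Cxcr5 RNA lay at 7.91 to 9.14 on the Tfh arrays, but its 5.19 to 5.87 in CXCR5+PD1- cells overlapped the 5.36 to 6.19 in CXCR5-PD1- cells. Il21 RNA averaged 10.60 and 9.96 in the GFP+ and GFP- Tfh gates, against 6.50 (CXCR5+PD1-) and 6.64 (CXCR5-PD1-). Xist RNA, a mark of female cells, lay at 10.65 to 11.25 on replicate 3 of every group and at 4.87 to 5.49 on the other 8 arrays, so replicates also differ in sex, in the same way in each group. The GFP+ arrays were the most scattered, with root mean square deviations from their group mean of 0.287 to 0.405 against 0.163 to 0.204 for the other 9 arrays, and GFP+ Tfh had the widest SD of the 4 groups for 25 of the 40 tested genes (62.5%) and for 60.7% of all genes tested.

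When the receptor binds antigen, tyrosines in the CD3 and zeta chains are phosphorylated and recruit the kinase Zap70, which phosphorylates the scaffold Lat and the adaptor Lcp2. These gather Plcg1, Tec family kinases and Vav exchange factors, and Plcg1 releases diacylglycerol, which activates Prkcq, and a second messenger that opens calcium stores. Diacylglycerol kinases, several of the phosphatases and inhibitory adaptors limit the signal. Tfh cells of Peyer's patches meet gut antigens repeatedly and help germinal centre B cells, and PD1, which they carry, recruits phosphatases to its cytoplasmic tail when engaged.

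Both Tfh gates together differed from both PD1- gates in 17 of the 40 genes: 11 rose and 6 fell in Tfh. Of the 8 receptor chains and coreceptors 3 passed the test (37.5%), and Lat and Prkcq did not. The largest differences lay in the Tec family kinase Txk, the adaptors Trat1 and Grap2, the phosphatase Ptpn11 and the adaptor Sla. The 17 are 42.5% of the 40. Over all 11240 genes, 10.4% passed the same threshold, a limma adjusted p under 0.05, with 5.05% higher and 5.33% lower. Under a stricter filter at the 70th percentile of each array, which keeps brighter genes, 16 of the genes described and 15.9% of all genes kept passed. The 6 Tfh and 6 PD1- arrays did not overlap for 16 of the 40 genes (40%), 9 of them higher and 7 lower in Tfh, and for 7.56% of all genes (3.49% higher and 4.07% lower). The median size of the difference was 0.29 on the log2 scale for the 40 genes and 0.12 for all genes, and the median signed difference was 0.13 against -0.02. In sorted bulk samples, fewer cells of a type and less RNA per cell cannot be told apart.

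**Figure D1:**
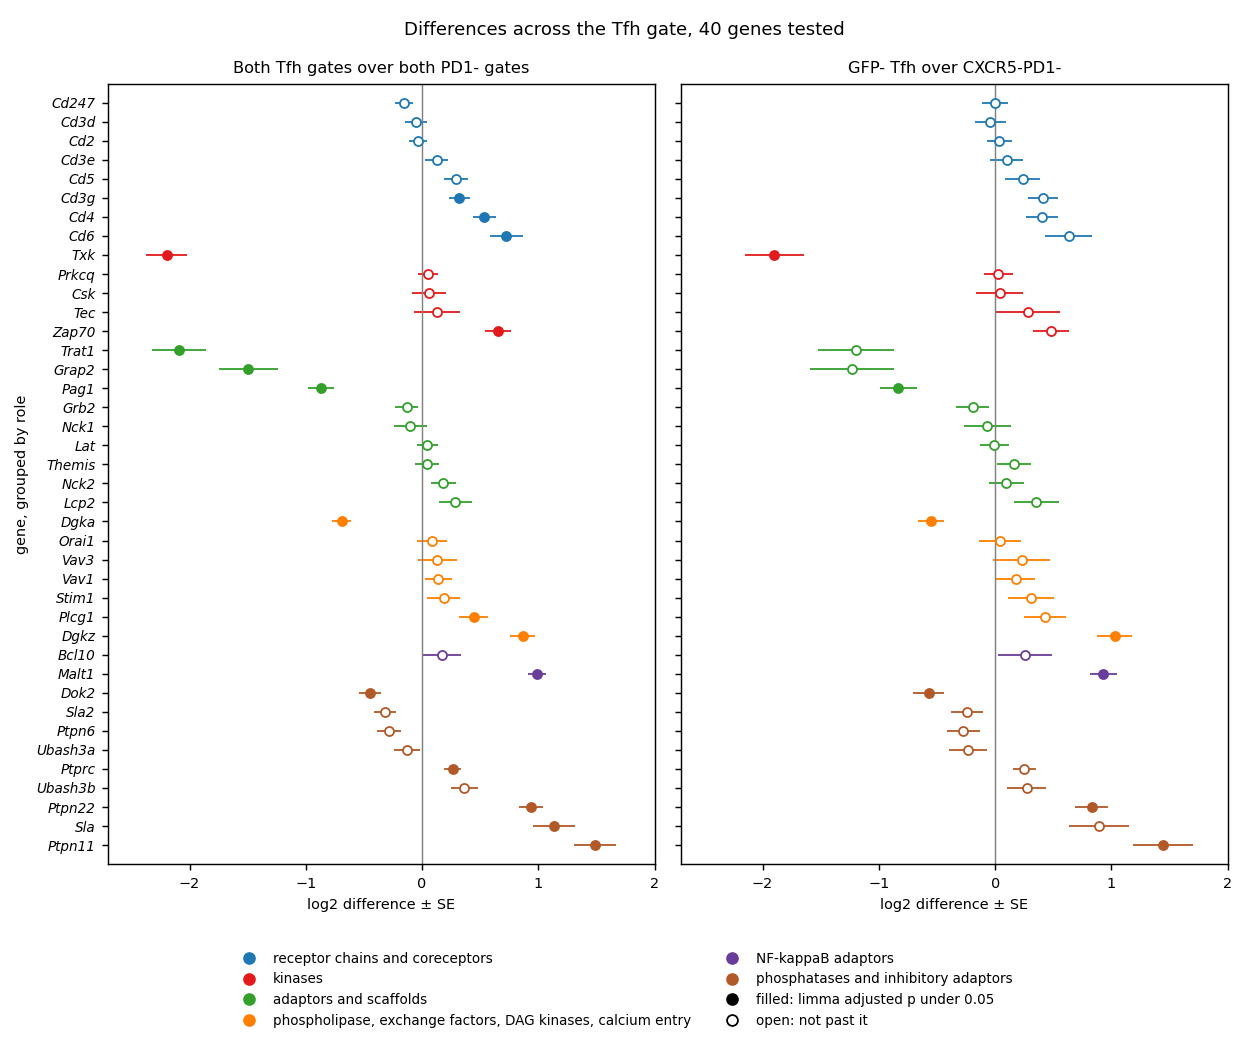
Log2 differences ± SE for the 40 tested genes, coloured and grouped by role, for both Tfh gates over both PD1- gates (left) and GFP- Tfh over CXCR5-PD1- cells (right). Filled points had a limma adjusted p under 0.05: 17 genes on the left and 8 on the right. Txk and Trat1 lie farthest to the left, at -2.20 and -2.09 in the left panel.

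RefSeq promoter windows (GRCm38.p6, 250 bases before to 50 after the annotated start, gene strand) were at hand for 33 of the 41 genes. Those of the 3 genes that fell most and of the gene that rose most are printed, since these carry the largest differences: Txk at chr5:72752728-72753027 (minus strand, 1 of 2 windows of the gene), Trat1 at chr16:48772013-48772312 (minus), Grap2 at chr15:80623233-80623532 (plus) and Ptpn11 at chr5:121191348-121191647 (minus). Capitals mark matches, on either strand, to 6 motifs that were searched by their letters: forkhead GTAAACA, Runx TGTGGT, TCF and LEF CTTTGA, ETS AGGAAG or CGGAAG, KLF CCACCC and E-box CAGCTG. No match overlapped another in these 4 windows.
Txk: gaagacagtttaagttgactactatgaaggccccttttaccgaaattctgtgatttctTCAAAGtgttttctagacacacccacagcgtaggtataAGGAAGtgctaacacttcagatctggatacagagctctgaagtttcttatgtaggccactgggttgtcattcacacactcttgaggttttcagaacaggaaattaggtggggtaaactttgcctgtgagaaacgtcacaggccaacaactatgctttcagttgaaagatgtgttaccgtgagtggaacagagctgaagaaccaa
Trat1: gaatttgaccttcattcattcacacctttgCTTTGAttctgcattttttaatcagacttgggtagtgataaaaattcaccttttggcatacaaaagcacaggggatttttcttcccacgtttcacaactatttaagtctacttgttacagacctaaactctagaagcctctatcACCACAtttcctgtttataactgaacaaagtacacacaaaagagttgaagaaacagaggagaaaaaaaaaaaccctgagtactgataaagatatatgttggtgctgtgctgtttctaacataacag
Grap2: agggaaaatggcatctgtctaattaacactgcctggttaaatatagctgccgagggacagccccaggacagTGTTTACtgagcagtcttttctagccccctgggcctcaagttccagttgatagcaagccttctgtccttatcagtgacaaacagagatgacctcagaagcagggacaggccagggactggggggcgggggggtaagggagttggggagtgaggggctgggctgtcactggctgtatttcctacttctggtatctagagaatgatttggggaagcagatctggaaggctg
Ptpn11: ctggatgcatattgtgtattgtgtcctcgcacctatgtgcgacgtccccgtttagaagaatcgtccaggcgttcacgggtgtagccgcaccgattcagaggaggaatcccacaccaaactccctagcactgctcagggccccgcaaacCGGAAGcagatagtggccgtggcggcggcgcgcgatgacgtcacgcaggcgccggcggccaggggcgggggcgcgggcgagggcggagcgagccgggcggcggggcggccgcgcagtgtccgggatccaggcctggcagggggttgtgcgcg
The capitals mark TCF and LEF then ETS letters in Txk, TCF and LEF then Runx letters in Trat1, forkhead letters in Grap2 and ETS letters in Ptpn11. The Ptpn11 window held 37 CpG dinucleotides and 68.7% G or C. The windows of the 3 genes that fell held 4 CpG and 42.7% in Txk, 1 CpG and 35.3% in Trat1, and 2 CpG and 53.0% in Grap2. Over 32851 windows of 27025 genes the median was 7 CpG. The 8 windows of 4 genes that fell in Tfh had a median of 4 CpG (1 to 28), the 12 windows of 7 genes that rose had a median of 7 (2 to 43), and the 29 windows of 22 genes without a call had a median of 8.

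TCF and LEF letters were in 3 of the 8 windows of genes that fell (37.5%), 2 of the 12 of genes that rose (16.7%) and 16.0% of all windows. They were in 4 of the 29 windows of genes without a call (13.8%). ETS letters were in 9 of the 12 windows of genes that rose (75.0%), 4 of the 8 of genes that fell (50%) and 46.5% of all windows. Genes without a call had ETS letters in 19 of 29 windows (65.5%), so a high share was not particular to genes that rose. KLF letters were in 4 of the 12, 0 of the 8 and 12 of the 29 (41.4%), against 31.5% of all. A gene with several windows counts once for each. Forkhead letters were in 1 of the 49 windows of these genes, that of Grap2, against 3.65% of all, Runx letters in 6 of 49 against 16.8% and E-box letters in 7 of 49 against 16.3%. These are descriptions of letters in a window, without a test.

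Among the 8 receptor chains and coreceptors, 3 rose in Tfh and 0 fell. Cd4, the coreceptor that binds MHC class II, lay at 10.52, 10.35 and 10.33 in GFP+ Tfh, 10.22, 10.31 and 10.07 in GFP- Tfh, 9.95, 9.72 and 9.52 in CXCR5+PD1- cells and 9.99, 9.74 and 9.66 in CXCR5-PD1- cells, values given here and below in the order of replicates 1, 2 and 3. Every Tfh array lay above every PD1- array, and Cd4 rose by 0.53 ± 0.10 on the log2 scale (1.45-fold, limma adjusted p = 0.00457). Cd6, a scavenger receptor family protein that sits beside the T cell receptor, lay at 9.38, 9.10 and 8.65 in GFP+ Tfh, 9.10, 9.34 and 8.70 in GFP- Tfh, 8.41, 8.08 and 8.19 in CXCR5+PD1- cells and 8.56, 8.39 and 8.30 in CXCR5-PD1- cells. The Tfh arrays were again all above the PD1- arrays, although the lowest of them, GFP+ Tfh replicate 3, was 0.09 from the highest PD1- array, and Cd6 rose by 0.72 ± 0.14 (1.65-fold, adjusted p = 0.00653). Cd3g, the CD3 gamma chain, lay at 12.19, 11.85 and 11.87 in GFP+ Tfh, 12.10, 12.06 and 12.08 in GFP- Tfh, 11.85, 11.64 and 11.72 in CXCR5+PD1- cells and 11.85, 11.51 and 11.67 in CXCR5-PD1- cells. Here 2 GFP+ arrays were level with the highest PD1- arrays, and the rise was small, 0.32 ± 0.09 (1.25-fold, adjusted p = 0.0470). Leaving out 1 array at a time kept the Cd3g call in 3 of 12 fits (without GFP+ Tfh replicate 2 or 3, or CXCR5-PD1- replicate 1), with adjusted p from 0.0339 to 0.117.

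The other 5 receptor genes did not pass. Cd3d and Cd3e, the delta and epsilon chains, ranged from 10.75 to 11.19 and from 11.16 to 11.74 over the 12 arrays. Their differences were -0.05 (95% confidence interval -0.25 to 0.15) and 0.13 (-0.09 to 0.34). Cd247, the zeta chain that carries most of the signalling motifs, differed by -0.16 (-0.33 to 0.02) and Cd2, an adhesion receptor that binds CD48 on other cells, by -0.03 (-0.20 to 0.14). Cd5, an inhibitory receptor whose level is set by receptor signal strength, ranged from 9.59 to 10.24 and differed by 0.29 ± 0.11 (adjusted p = 0.120). It passed when GFP+ Tfh replicate 3 was left out (0.37, adjusted p = 0.0166).

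**Figure D2:**
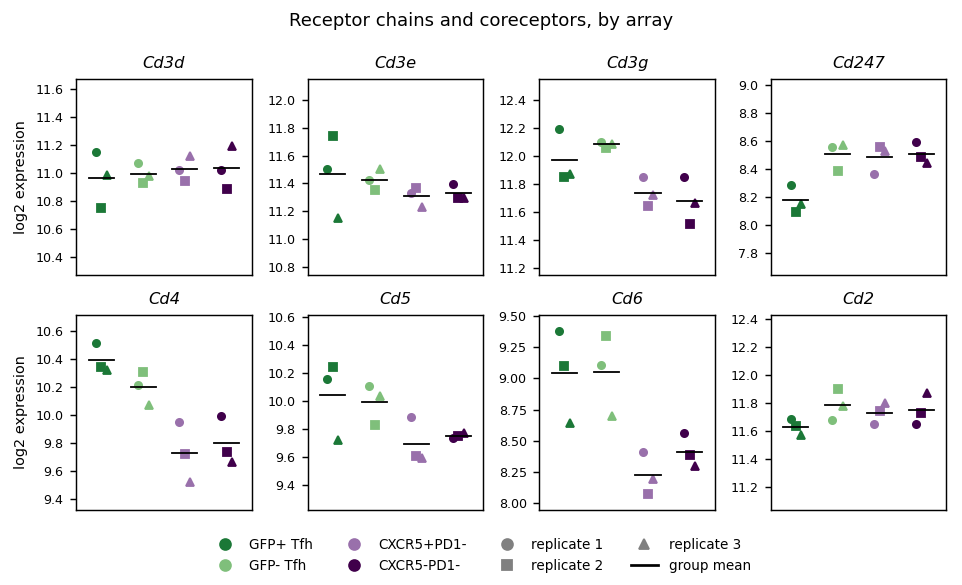
Log2 expression of the 8 receptor chain and coreceptor genes on the 12 arrays; colours are the 4 groups, marker shapes the replicate numbers, black lines the group means, and each panel has its own axis range. Cd4 and Cd6 lie higher on all 6 Tfh arrays, Cd3d and Cd2 mix the gates, and Cd247 is lowest on the 3 GFP+ arrays (8.09 to 8.29).

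Of the 5 kinases tested, Txk fell and Zap70 rose. Txk, a Tec family kinase expressed in T cells, lay at 8.04, 7.66 and 7.16 in GFP+ Tfh, 8.23, 8.47 and 8.25 in GFP- Tfh, 9.66, 10.39 and 10.29 in CXCR5+PD1- cells and 9.84, 10.46 and 10.35 in CXCR5-PD1- cells. All 6 Tfh arrays were below all 6 PD1- arrays, the 3 GFP+ arrays lowest of all, and Txk fell by 2.20 ± 0.18 on the log2 scale, 4.58-fold (mean 7.97 against 10.16, limma adjusted p = 1.16e-05). Zap70 lay at 9.47, 9.43 and 9.20 in GFP+ Tfh, 8.93, 9.49 and 9.15 in GFP- Tfh, 8.74, 8.52 and 8.37 in CXCR5+PD1- cells and 8.81, 8.61 and 8.72 in CXCR5-PD1- cells. Its Tfh arrays were all above the PD1- arrays, the nearest being GFP- Tfh replicate 1 and CXCR5-PD1- replicate 1, and Zap70 rose by 0.65 ± 0.11 (1.57-fold, adjusted p = 0.00254). Tec, a relative of Txk, differed by 0.13 (95% confidence interval -0.30 to 0.56), and GFP+ Tfh replicate 3, at 6.08, was the lowest of its 12 arrays. Prkcq, the protein kinase C isoform of the T cell synapse, ranged from 10.49 to 10.88 with a difference of 0.05 (-0.14 to 0.24). Csk, which phosphorylates the inhibitory tyrosine of Src family kinases, differed by 0.06 (-0.26 to 0.38).

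Among the 9 adaptors and scaffolds tested, 3 fell in Tfh and 0 rose. Trat1, a transmembrane adaptor that associates with the receptor complex, lay at 6.55, 5.18 and 5.61 in GFP+ Tfh, 7.41, 7.10 and 7.64 in GFP- Tfh, 8.41, 8.72 and 9.19 in CXCR5+PD1- cells and 8.35, 8.38 and 9.0 in CXCR5-PD1- cells. The GFP+ arrays were lowest, the GFP- Tfh arrays intermediate and the PD1- arrays highest with no overlap between these 3 sets, and Trat1 fell by 2.09 ± 0.23, 4.26-fold (limma adjusted p = 0.000117). Without the 3 GFP+ arrays, an alternative added after seeing the data, the difference was -1.29 (adjusted p = 0.00267). Grap2, which links Lat to Lcp2, lay at 9.02, 8.92 and 7.27 in GFP+ Tfh, 8.92, 9.15 and 8.69 in GFP- Tfh, 10.03, 10.30 and 10.15 in CXCR5+PD1- cells and 10.09, 10.27 and 10.09 in CXCR5-PD1- cells. All Tfh arrays were below all PD1- arrays, GFP+ Tfh replicate 3 stood apart from its group, and Grap2 fell by 1.49 ± 0.25 (2.82-fold, adjusted p = 0.00248). Pag1, a membrane adaptor that anchors Csk, lay at 5.91, 6.18 and 6.17 in GFP+ Tfh, 6.46, 6.10 and 6.30 in GFP- Tfh, 6.75, 6.94 and 7.30 in CXCR5+PD1- cells and 7.27, 6.99 and 7.10 in CXCR5-PD1- cells. It fell by 0.87 ± 0.11 without overlap (1.83-fold, adjusted p = 0.000412). Pag1 was above the array median on 7 of 12 arrays, with GFP- Tfh replicate 1 the only Tfh array among them. It thus entered the test through the PD1- arrays, where it is high. The counts of genes lower in both Tfh gates and in GFP- Tfh include it with that limit. The GFP+ means of Trat1 and both Tfh means of Pag1 were below the array median, where values can be compressed, so their folds can be understated.

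The 6 remaining adaptors did not pass. Lat, the scaffold on which the cascade assembles, ranged from 11.09 to 11.46 on the 12 arrays and differed by 0.04 (95% confidence interval -0.15 to 0.24). Themis, a regulator of receptor signals in thymocytes, ranged from 9.47 to 9.98 and differed by 0.04 (-0.18 to 0.27). Grb2, which brings a Ras exchange factor to Lat, differed by -0.13 (-0.35 to 0.09). For Lcp2 the range was 10.20 to 11.01 and the difference 0.29 ± 0.14 (adjusted p = 0.262). The adaptors Nck1 and Nck2, which link the receptor to the actin cytoskeleton, differed by -0.10 and 0.18. Nck2 was above the array median on 4 arrays, so little can be read from its value.

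**Figure D3:**
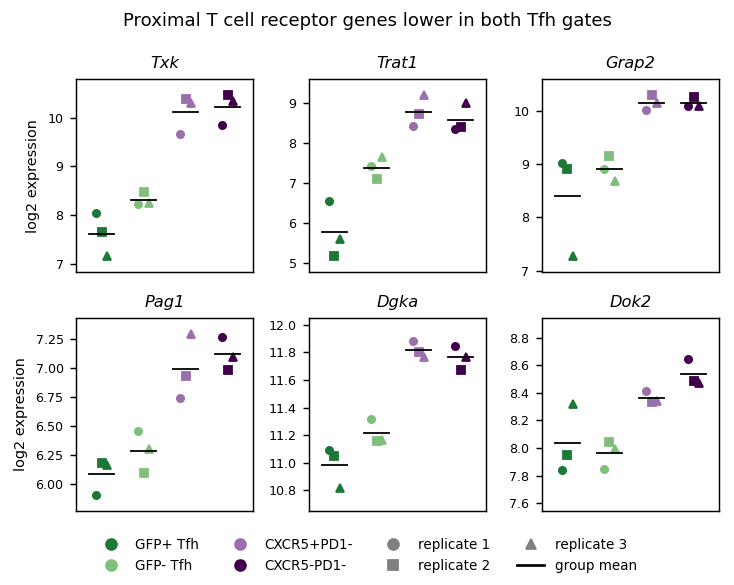
Log2 expression on the 12 arrays of the 6 genes that fell in the pooled comparison of the Tfh gates; colours are the groups, marker shapes the replicate numbers, black lines the group means, and each panel has its own axis range. No Tfh array reaches the PD1- arrays in any of the 6 panels, and GFP+ Tfh replicate 3 lies apart for Grap2 at 7.27.

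In the set of phospholipase, exchange factor, diacylglycerol kinase and calcium entry genes, 2 of 7 rose and 1 fell. Both diacylglycerol kinases, which convert diacylglycerol to phosphatidic acid and so limit its signal, passed the test in opposite directions. Dgka lay at 11.09, 11.05 and 10.82 in GFP+ Tfh, 11.32, 11.16 and 11.16 in GFP- Tfh, 11.88, 11.80 and 11.77 in CXCR5+PD1- cells and 11.85, 11.67 and 11.77 in CXCR5-PD1- cells, and fell by 0.69 ± 0.08 (1.61-fold, limma adjusted p = 0.000159). Dgkz lay at 8.86, 8.52 and 8.59 in GFP+ Tfh, 8.86, 8.64 and 8.83 in GFP- Tfh, 8.12, 7.93 and 7.82 in CXCR5+PD1- cells and 7.82, 7.48 and 7.96 in CXCR5-PD1- cells, and rose by 0.86 ± 0.11 (1.82-fold, adjusted p = 0.000269). Neither gene's Tfh arrays overlapped the PD1- arrays. Dgkz was the only gene of the set with 2 probe sets, and they disagreed: the dimmer probe set had a mean of 7.05 in Tfh and 7.04 in PD1- cells, and the mean of both probe sets differed by 0.43 (adjusted p = 0.00363).

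Plcg1, the phospholipase that cleaves a membrane lipid into diacylglycerol and the calcium-releasing messenger, lay at 9.81, 9.04 and 9.62 in GFP+ Tfh, 9.46, 9.51 and 9.39 in GFP- Tfh, 9.10, 8.84 and 9.16 in CXCR5+PD1- cells and 9.20, 8.90 and 8.97 in CXCR5-PD1- cells. GFP+ Tfh replicate 2 lay within the PD1- arrays, and the rise of 0.44 ± 0.13 (1.36-fold) was at the threshold (limma adjusted p = 0.0499). It was kept in 1 of 12 fits that left out 1 array, that without GFP+ Tfh replicate 2, over adjusted p from 0.00410 to 0.124. The exchange factors Vav1 and Vav3 differed by 0.14 and 0.13. Stim1, the calcium sensor of the endoplasmic reticulum, differed by 0.18 (adjusted p = 0.543) and Orai1, the calcium channel it opens, by 0.09. None of these 4 passed.

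Malt1, the paracaspase that works with Bcl10 to activate NF-kappaB, rose with the smallest adjusted p of the 40 genes. It lay at 11.41, 11.36 and 11.35 in GFP+ Tfh, 11.07, 11.34 and 11.23 in GFP- Tfh, 10.23, 10.42 and 10.33 in CXCR5+PD1- cells and 10.16, 10.32 and 10.37 in CXCR5-PD1- cells. Its 6 Tfh arrays were 0.65 or more above the highest PD1- array, and Malt1 rose by 0.99 ± 0.08 (1.98-fold, limma adjusted p = 1.1e-05). Bcl10 differed by 0.17 and did not pass.

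Of the 9 phosphatases and inhibitory adaptors tested, 4 rose and 1 fell. Not all phosphatases of this role only restrain the signal, so the count is no measure of restraint. Ptpn11, a phosphatase that binds the tail of PD1 and also promotes Ras signalling, lay at 10.12, 9.98 and 9.12 in GFP+ Tfh, 9.85, 10.03 and 9.26 in GFP- Tfh, 7.98, 8.26 and 8.39 in CXCR5+PD1- cells and 8.28, 8.26 and 8.28 in CXCR5-PD1- cells. The 6 Tfh arrays were all above the PD1- arrays, replicate 3 being lowest in both Tfh groups, and Ptpn11 rose by 1.49 ± 0.18 (2.8-fold, mean 9.73 against 8.24, limma adjusted p = 0.000247). Ptpn22, a phosphatase that dephosphorylates kinases at the receptor, lay at 11.10, 11.18 and 11.10 in GFP+ Tfh, 10.97, 11.33 and 11.00 in GFP- Tfh, 9.91, 10.32 and 10.02 in CXCR5+PD1- cells and 10.15, 10.42 and 10.24 in CXCR5-PD1- cells. It rose by 0.94 ± 0.10 without overlap (1.91-fold, adjusted p = 9.65e-05). Sla, an adaptor that promotes turnover of the receptor's zeta chain, lay at 10.06, 10.58 and 11.16 in GFP+ Tfh, 10.01, 10.51 and 10.35 in GFP- Tfh, 9.40, 9.31 and 8.93 in CXCR5+PD1- cells and 9.34, 9.69 and 9.16 in CXCR5-PD1- cells. Again no Tfh array reached down to the PD1- arrays, and Sla rose by 1.14 ± 0.18 (2.2-fold, adjusted p = 0.00163). Ptprc, the CD45 phosphatase, ranged from 11.91 to 12.30 and rose by 0.26 ± 0.07 (adjusted p = 0.0375), with all Tfh arrays at or above 12.09 and all PD1- arrays at or below 11.95. In the 12 fits without 1 array the Ptprc call was kept in 4 (each without a GFP+ Tfh array, or without GFP- Tfh replicate 3), with adjusted p from 0.0371 to 0.0957. With the replicate number as a block it did not pass (adjusted p = 0.060).

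Dok2, an adaptor that recruits a Ras inhibitor, was the only gene of this role to fall among the 9 tested. It lay at 7.84, 7.95 and 8.32 in GFP+ Tfh, 7.85, 8.05 and 7.99 in GFP- Tfh, 8.42, 8.33 and 8.34 in CXCR5+PD1- cells and 8.65, 8.49 and 8.47 in CXCR5-PD1- cells. The Tfh and PD1- arrays were separated by 0.014 at their closest, GFP+ Tfh replicate 3 and CXCR5+PD1- replicate 2, and Dok2 fell by 0.45 ± 0.09 (1.37-fold, limma adjusted p = 0.00904). Sla2, a relative of Sla, lay at 7.12, 7.62 and 7.56 in GFP+ Tfh, 7.56, 7.69 and 7.72 in GFP- Tfh, 7.75, 7.91 and 7.83 in CXCR5+PD1- cells and 7.91, 7.94 and 7.84 in CXCR5-PD1- cells. Its arrays did not overlap either, but the difference of -0.32 ± 0.10 missed the threshold (adjusted p = 0.0574), and it passed without any 1 of the 3 GFP+ arrays (adjusted p from 0.0364 to 0.0485). Ubash3b, a phosphatase that acts on Zap70, differed by 0.36 ± 0.12 (adjusted p = 0.0801, and 0.0314 without GFP+ Tfh replicate 3), Ptpn6, a phosphatase bound by many inhibitory receptors, by -0.29 ± 0.10 (adjusted p = 0.108) and Ubash3a by -0.13. In all, 18 of the 23 genes that did not pass had a difference under 0.2 in size.

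**Figure D4:**
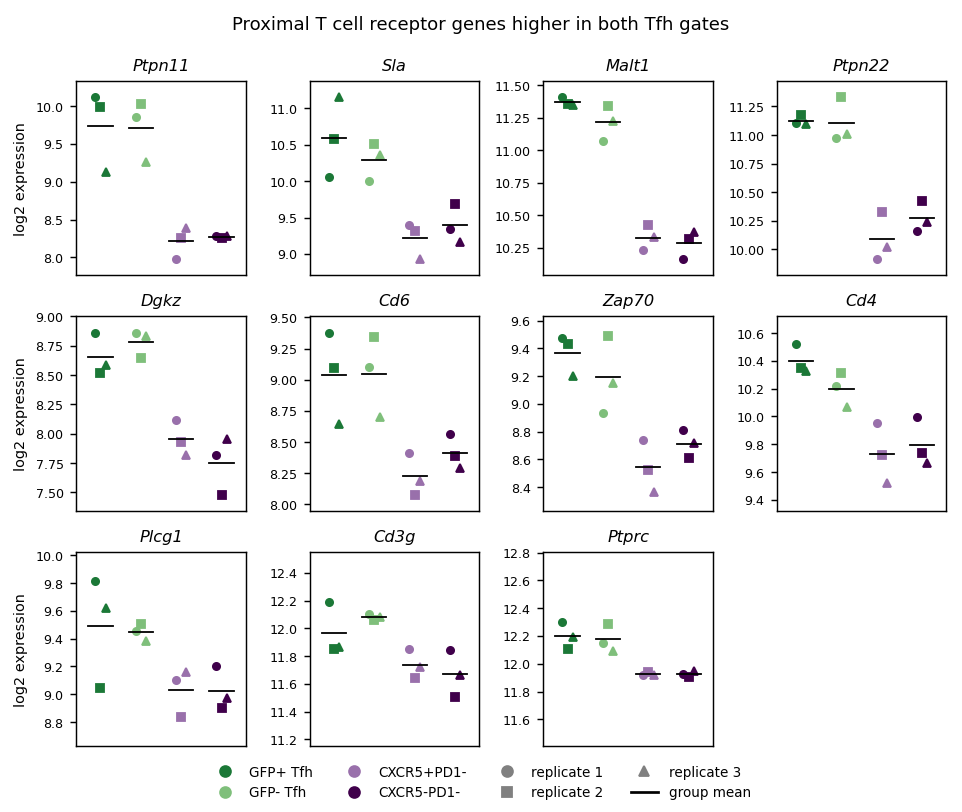
Log2 expression on the 12 arrays of the 11 genes that rose in the pooled comparison of the Tfh gates; colours are the groups, marker shapes the replicate numbers, black lines the group means, and each panel has its own axis range. The gates are separated for 9 genes and overlap for Plcg1 and Cd3g.

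Within the Tfh gate, 0 of the 40 genes differed between GFP+ and GFP- cells at a limma adjusted p under 0.05. Of all 11240 genes, 5 passed (0.0445%), all lower in GFP+ Tfh. At an unadjusted p under 0.05 there were 4 of the 40 genes (10%) and 7.37% of all genes. Trat1 had the largest difference, with a mean of 5.78 ± 0.70 (SD, n = 3) in GFP+ and 7.38 ± 0.27 in GFP- Tfh, a difference of -1.60 ± 0.33 (95% confidence interval -2.32 to -0.89, adjusted p = 0.206). Without GFP+ Tfh replicate 1, the highest of its group at 6.55, Trat1 passed (-1.99, adjusted p = 0.0127), in a fit where 237 genes passed. Cd247 lay at 8.17 ± 0.10 in GFP+ and 8.50 ± 0.10 in GFP- Tfh (difference -0.33 ± 0.11, adjusted p = 0.515). Its 3 GFP+ arrays, at 8.29, 8.09 and 8.14, were below the other 9 arrays, which held 8.36 to 8.59.

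Txk lay at 7.62 ± 0.44 in GFP+ and 8.32 ± 0.14 in GFP- Tfh (difference -0.70 ± 0.25, limma adjusted p = 0.569). Nck1 lay at 7.62, 6.81 and 7.47 in GFP+ Tfh, 7.90, 7.72 and 7.75 in GFP- Tfh, 7.52, 7.20 and 7.59 in CXCR5+PD1- cells and 8.06, 7.61 and 7.90 in CXCR5-PD1- cells, and its GFP+ arrays did not overlap the GFP- Tfh arrays (difference -0.49 ± 0.20, adjusted p = 0.631). Arrays of the 2 Tfh groups did not overlap for 7 of the 40 genes (17.5%), against 8.74% of all genes: Trat1, Txk, Cd247, Nck1 and Dgka were lower (5 genes, against 5.65% of all) and Cd4 and Malt1 higher in GFP+ Tfh (2 genes, against 3.09%). The 2 higher genes were separated narrowly. For Cd4 the lowest GFP+ array was at 10.33 and the highest GFP- Tfh array at 10.31, and for Malt1 these were 11.35 and 11.34. The median signed difference was -0.06 for the 40 genes and -0.02 for all genes. The wider spread of the GFP+ arrays, a median SD of 0.25 for the 40 genes against 0.14 in GFP- Tfh, moves with this comparison, and its part was not tested.

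GFP- Tfh differed from CXCR5-PD1- cells in 8 of the 40 genes (20.0%), 4 higher and 4 lower, against 3.82% of all genes (2.22% higher and 1.6% lower). Under the filter at the 70th percentile 7 of the genes described and 6.05% of all genes kept passed. This comparison shares its arrays with that of both gates. Higher in GFP- Tfh were Ptpn11 (1.44 ± 0.26, limma adjusted p = 0.00804), Dgkz (1.03 ± 0.15, adjusted p = 0.00250), Malt1 (0.93 ± 0.11, adjusted p = 0.000793) and Ptpn22 (0.83 ± 0.14, adjusted p = 0.00597). Lower were Txk (-1.90 ± 0.25, adjusted p = 0.00138), Pag1 (-0.83 ± 0.16, adjusted p = 0.0128), Dok2 (-0.57 ± 0.13, adjusted p = 0.0342) and Dgka (-0.55 ± 0.11, adjusted p = 0.0183). The 3 arrays of either group did not overlap for 20 of the 40 genes (50%) and for 21.6% of all, and 17 of the 40 had an unadjusted p under 0.05, against 13.2% of all.

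Trat1 (-1.19 ± 0.33, limma adjusted p = 0.0725), Grap2 (-1.23 ± 0.36, adjusted p = 0.0944) and Sla (0.89 ± 0.26, adjusted p = 0.0909) had larger differences than some called genes but did not pass. The SEs pool the spread of all 4 groups, including GFP+ Tfh, which is not in this comparison. For Grap2 the SD was 0.98 in GFP+ Tfh, 0.23 in GFP- Tfh and 0.11 in CXCR5-PD1- cells. With the 2 groups alone Trat1, Grap2 and Sla passed, Grap2 with an SE of 0.14 (limma adjusted p = 0.00211). With the GFP+ arrays left out of the model, an alternative added after seeing the data, 12 of the 40 genes passed. Trat1, Grap2, Sla and Cd6 came in addition to the 8, and 865 of all genes passed in place of 429. Leaving out single arrays removed calls from the smaller differences: Dok2 was lost without any 1 of the 6 arrays (adjusted p from 0.0798 to 0.145), Dgka without CXCR5-PD1- replicate 1 or 3 or GFP- Tfh replicate 2 or 3 (up to 0.0827), and Pag1 without CXCR5-PD1- replicate 1 or 3 or GFP- Tfh replicate 2 (up to 0.0676). Receptor chains and coreceptors had 0 calls of 8 here. The nearest were Cd3g (0.41, adjusted p = 0.134), Cd6 (0.63, adjusted p = 0.140) and Cd4 (0.40, adjusted p = 0.183).

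Between CXCR5+PD1- and CXCR5-PD1- cells 0 of the 40 genes passed, as did 0.0% of all genes in limma. At an unadjusted p under 0.05 there were 0 of the 40 and 137 of all genes (1.22%). Differences ran from -0.42 for Nck1 to 0.20 for Dgkz, and 36 of 40 were under 0.2 in size. Txk, the gene with the largest Tfh difference, was 10.11 ± 0.40 (SD, n = 3) in CXCR5+PD1- and 10.21 ± 0.33 in CXCR5-PD1- cells, a difference of -0.10 (95% confidence interval -0.65 to 0.45). The arrays of these groups did not overlap for Nck1 and Dok2, both lower in CXCR5+PD1- cells, or 5.0% of the 40 genes against 8.74% of all (5.37% higher and 3.36% lower).

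**Figure D5:**
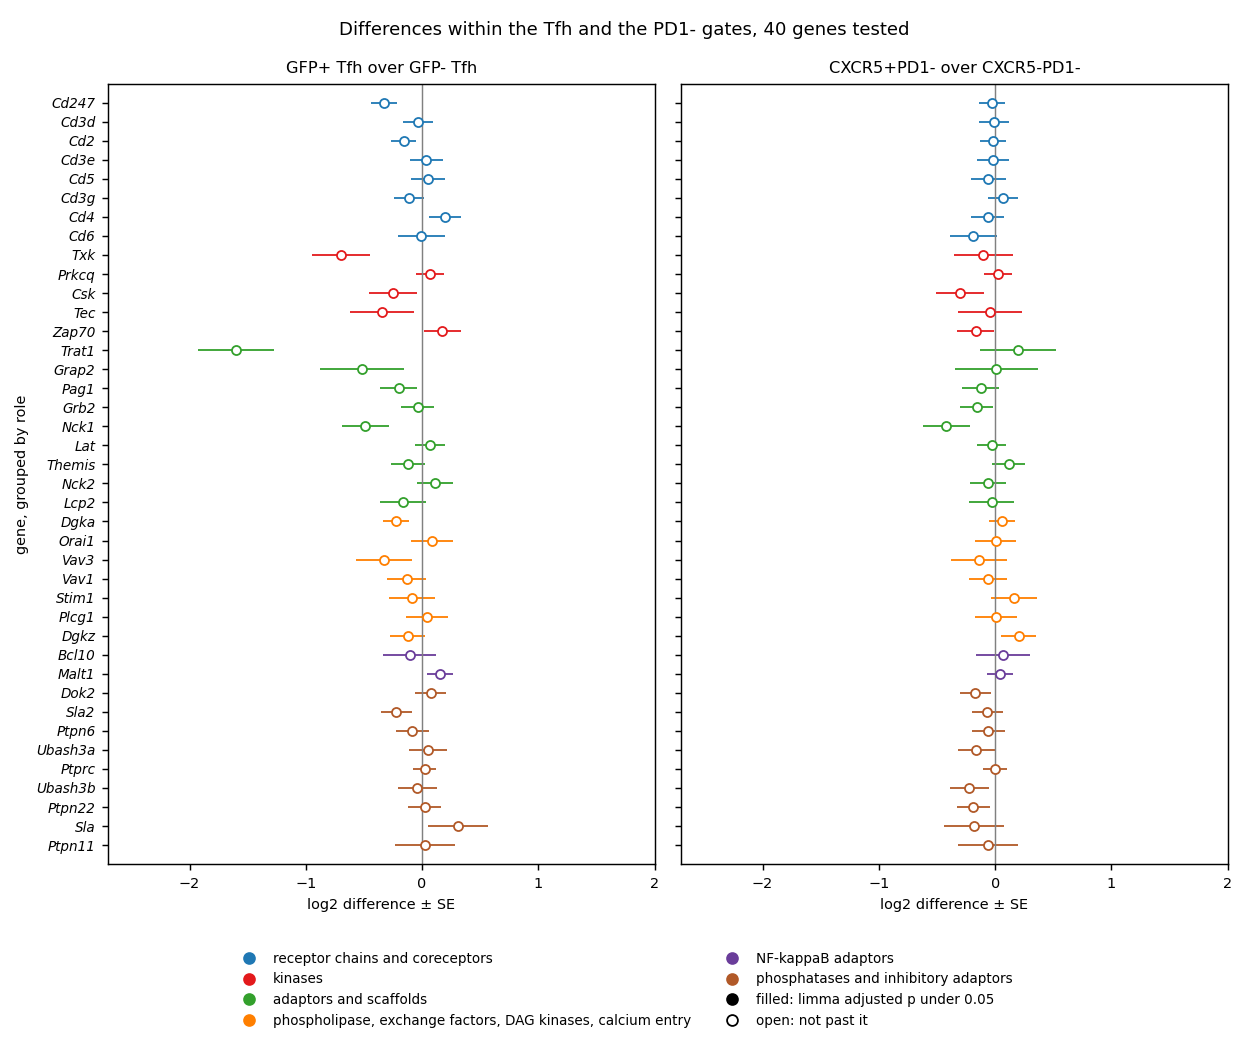
Log2 differences ± SE of the 40 tested genes, grouped by role, for GFP+ over GFP- Tfh (left) and CXCR5+PD1- over CXCR5-PD1- cells (right), on the same axis. All points are open because 0 genes passed in either comparison; Trat1 lies at -1.60 on the left, and on the right the points lie between -0.42 and 0.20.

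The wider pathway was read from a list of 88 further genes, of which 75 were tested. In both Tfh gates over both PD1- gates, 7 rose and 8 fell, 20.0% of the 75 against 10.4% of all genes. The calcium and NFAT branch had 3 higher and 1 lower of 11. Nfatc1 (1.28 ± 0.11, limma adjusted p = 1.96e-05) and Nfatc2 (0.58 ± 0.07, adjusted p = 0.000294), the transcription factors that calcineurin activates, rose, as did the calcium release channel Itpr2 (0.44 ± 0.08, adjusted p = 0.00445). Ppp3ca, which encodes the alpha form of the calcineurin catalytic subunit, fell by 1.54 ± 0.08 (adjusted p = 8.19e-07). Ppp3cb, which encodes the beta form, did not pass, with means of 9.46 in Tfh and 9.51 in PD1- cells (-0.05 ± 0.19, adjusted p = 0.939). Ppp3ca was also the only gene of the 75 to pass between GFP+ and GFP- Tfh, where it fell by 0.80 ± 0.11 (adjusted p = 0.0285).

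The NF-kappaB and diacylglycerol branch had 1 higher and 5 lower of 12, among them Ikbkb, a kinase that releases NF-kappaB (-0.77 ± 0.12, limma adjusted p = 0.00119), and Prkd2, a kinase activated by diacylglycerol (-0.66 ± 0.12, adjusted p = 0.00369). The 17 further kinase, coreceptor and adaptor genes had 1 higher and 1 lower (11.8%), near the 10.4% of all genes. Fyn, a Src family kinase of T cells, rose (0.85 ± 0.12, adjusted p = 0.000825) and Cd226, a costimulatory receptor, fell (-0.91 ± 0.18, adjusted p = 0.00764). Negative regulators had 2 higher and 0 lower of 16 (12.5%) and the PI3K branch 0 higher and 1 lower of 9 (11.1%), also near the 10.4% of all genes. The Ras and MAP kinase branch had 0 of 10. At an unadjusted limma p under 0.05 this branch had 2 of 10, against 21.5% of all genes. GFP- Tfh over CXCR5-PD1- cells gave 3 higher (Nfatc1, Nfatc2, Fyn) and 2 lower (Ppp3ca, Prkd2) of the 75, 6.67% against 3.82% of all genes, and CXCR5+PD1- over CXCR5-PD1- cells gave 0, also at an unadjusted p under 0.05.

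Markers of other cells were followed on the same arrays as the mean log2 level of a list minus the array median. B cell markers (11 genes) lay at -0.81 to -0.62 on the Tfh and -0.85 to -0.68 on the PD1- arrays, with 1 of them higher and 0 lower in Tfh. Myeloid markers (11 genes) lay at -0.46 to -0.23 and -0.53 to -0.16, and epithelial markers (9 genes) at -0.60 to -0.42 and -0.59 to -0.50, with 0 calls. CD8, NK and gamma delta T cell markers (8 genes) lay at -0.85 to -0.64 and -0.73 to -0.37, with 1 higher and 1 lower. By group mean, 8 of the 11 B cell markers were below the array median in all 4 groups, Cd79a and Ms4a1 among them, and 0 were above it in all 4. Of the 11 myeloid markers 7 were below it in all 4 groups, Csf1r among them, whereas Tyrobp (0.91 to 1.52), Cd68 (0.84 to 1.29) and Cd300a (0.19 to 0.23) were above it in all 4, and Lyz2 was 0.69 above it in GFP+ Tfh and below it in the other 3. Of the 9 epithelial markers 6 were below it in all 4 groups, Epcam among them, and Krt8 (0.63 to 0.90) and Lgals4 (0.38 to 0.90) above it in all 4. Cd8a lay between -0.03 (GFP+ Tfh) and 0.46 (CXCR5-PD1- cells). Cd8b1 was also highest in CXCR5-PD1- cells, at 0.58 against -0.24 in GFP- Tfh, whereas Cd160 went the other way (-0.17 against 0.32). Of the 8 CD8, NK and gamma delta T cell markers, 1 passed as lower in GFP- Tfh than in CXCR5-PD1- cells and 0 as higher. T cell identity markers (11 genes) lay at 3.42 to 3.87 on Tfh and 3.55 to 3.72 on PD1- arrays, with 4 higher and 1 lower in Tfh; all 11 belong to the genes described above and are no separate check. Regulatory T cell markers (7 genes), which the cells studied may themselves express, lay at 1.70 to 1.96 in GFP+ Tfh, 2.27 to 2.45 in GFP- Tfh and 1.85 to 2.31 in PD1- cells, with 2 higher and 2 lower in Tfh. Between the 2 Tfh groups, 1 of these 7 markers passed as lower with GFP and 0 as higher. Foxp3 averaged 7.03 in the GFP+ and 7.66 in the GFP- Tfh gate, and the PD1- groups averaged 7.68 and 7.95. For Il2ra the GFP+ mean was 5.83 and the GFP- Tfh mean 8.55, with PD1- means of 8.77 and 9.09. Tnfrsf18 and Nrp1 means were also lower in the GFP+ gate. Ikzf2 (11.09 against 11.00), Ikzf4 (6.80 against 6.72) and Ctla4 (12.11 against 12.08) were slightly higher there. The part of these cells in the values above was not tested.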

How the data were processed

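RNA from 12 sorted samples was measured on Affymetrix gene arrays. The authors' deposited values are on the log2 scale, cover 34760 probe sets and come from RMA (oligo), per the submitters' processing notes. This method compresses low signals and removes shifts shared by most genes. The build behind the annotation is not given in the sources. All columns matched a sample title.

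Of the probe sets, 21640 had 1 gene symbol, 1321 several and 11799 none here. For genes with more than 1 probe set the brightest was used. Genes above the array median (6.34 to 6.45) on at least 3 arrays were tested, 11240 in all, and 8697 were left out. Each comparison was a contrast in 1 linear model of the 12 arrays (limma 3.58.1 in R 4.3.3; 8 residual degrees of freedom, 11.5 after moderation), with Benjamini-Hochberg adjustment over all 11240 genes and a threshold of 0.05. SEs and 95% intervals are the moderated ones, and the number of arrays limits their precision. The code was tested on simulated data.

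The genes, lists and alternatives were chosen with earlier results of these data known. Genes given in full are, for both Tfh gates, those past the threshold, up to 10 each way by size; elsewhere those past the threshold; for GFP+ over GFP- Tfh the 4 with the smallest p; and for the wider pathway up to 4 each way by adjusted p. Others were named after their values were seen.

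Same-numbered CXCR5+PD1- and CXCR5-PD1- arrays deviated together (correlations 0.210 to 0.353 over genes). Pairing by replicate number entered only the alternative fit with a replicate block. The main model has no block, so the values given for this comparison are unpaired. What a replicate number stands for is not given. In the other comparisons the correlations of same-numbered arrays did not all exceed 0.1. Alternatives tried were the filter, the probe set rule, trend and robust moderation, cyclic loess, weights per group, the 2 groups alone, the replicate block and leaving out arrays.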

Additional observations from a re-analysis of the deposited data

How the results depend on the processing

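In both Tfh gates over both PD1- gates, 17 genes passed, and every alternative run gave 14 to 19: 15 with no filter, 16 without the GFP+ arrays (added after seeing the data), and 14 to 19 without 1 array. Of the 17 calls, 13 were kept in every alternative, Pag1 was lost where a filter at the 70th percentile took it out of the test, and Cd3g, Plcg1 and Ptprc were lost in 12, 14 and 11 of 21. In GFP- Tfh over CXCR5-PD1- cells, 8 passed, against 13 with 1 weight per group, 5 without the replicates numbered 3, 12 without the GFP+ arrays and 5 to 7 without 1 array. In GFP+ over GFP- Tfh, 0 passed in every alternative except without 1 array, which gave 0 to 1 (Trat1, without GFP+ Tfh replicate 1). In CXCR5+PD1- over CXCR5-PD1- cells, 0 passed in every alternative. No called difference changed sign in any alternative, nor did those of the 4 genes given in full for GFP+ over GFP- Tfh. Of the 23 genes without a call in both Tfh gates over both PD1- gates, 6 took the other sign in at least 1 alternative (Cd3d, Cd247, Cd2, Csk, Nck1 and Themis, all at or under 0.16 in size), so no direction is read from them.

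With the replicate number as a block, 18 of the 40 genes passed in both Tfh gates over both PD1- gates (Sla2 and Ubash3b came in, and Ptprc was lost, adjusted p = 0.060), 8 in GFP- Tfh over CXCR5-PD1- cells and 0 in the other 2 comparisons, so the paired fit added 0 calls between the CXCR5+PD1- and CXCR5-PD1- groups. Over all genes, 429 passed in GFP- Tfh over CXCR5-PD1- cells, against 665 with the 2 groups alone, 791 with 1 weight per group, 266 without the replicates numbered 3, 865 without the GFP+ arrays and as few as 228 without 1 array. In GFP+ over GFP- Tfh, 5 passed, against 0 with the 2 groups alone, 3 with 1 weight per group, 0 without the replicates numbered 3, and up to 237 without 1 array. The causes were not tested. Genes near the array median, such as Nck2, Pag1 and Trat1 in GFP+ Tfh, can have compressed differences, which was not measured here.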
